A study of Mus musculus with 10 samples.

Results

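Microglia sorted from mice fed cuprizone for 12 weeks were compared with microglia from mice fed it for 4 weeks. Cuprizone is a copper chelator mixed into the diet that kills oligodendrocytes and strips myelin from axons. The comparison uses 8 of the series' 10 microarray libraries, chosen by title: 4 name 12 weeks (WT-Cu12, WT-Cu12+2, Trem2-Cu12 and Trem2-Cu12+2) and 4 name 4 weeks (WT-Cu4, WT-Cu4+2, Trem2-Cu4 and Trem2-Cu4+2). All came from male C57BL/6 mice labelled 8 to 12 weeks of age, either wild type (WT) or Trem2-/-, which lack a microglial receptor for lipids and other debris. The age label is the same at both feeding times, so it does not show whether age at sampling differed with feeding time. All 8 groups received a 0.2% cuprizone diet, and titles ending in +2 add a recovery of 2 weeks on normal feed. The libraries form 4 pairs, in each of which genotype and phase (cuprizone or recovery) are the same and feeding time differs. The other 2 libraries, WT-Ctl and Trem2-Ctl, come from mice of each genotype without cuprizone and are shown beside the results but enter no test.

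Each condition is 1 library, and the labels name no animals, pools or sort markers, so the 4 pairs are the only replication. The p-values measure how the difference varies over the pairs, with each gene's variance drawn toward a value shared by all genes. Feeding time coincides with the submitters' sample numbers: the 2 controls and the 4 libraries of 4 weeks hold 6 consecutive numbers, 23164 to 23169, and the 4 libraries of 12 weeks lie between 23824 and 23829. No control lies in the second run of numbers, so feeding time and run cannot be told apart in any difference between 12 and 4 weeks. The library titled Trem2-Cu12 also has a conflicting label: its description and its time field say 4 weeks, while its title and sample number place it with the 12-week libraries. It is taken by title here, and the values without its pair are given after the results for each named gene whose call was lost without it.

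As macrophages that live in the brain, microglia in demyelination clear myelin debris, release cytokines and leave behind part of their resting gene program. Short cuprizone feeding is known to be followed by remyelination once the diet stops, while prolonged feeding is used as a model of chronic demyelination with poor repair. Interferon-beta and tumour necrosis factor are cytokines that macrophages release on sensing damage or microbial products, and brain samples can also carry neutrophils, monocytes and the macrophages of the meninges and perivascular spaces, called border macrophages here.

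The deposited values are linear array intensities with a median of 37.6 to 39.3 in each library. Levels below are log2 of these intensities, and a difference is the mean of 12 minus 4 weeks over the 4 pairs, in log2 units. It is given with the standard error (SE) of the limma fit. That fit draws each gene's variance over the pairs toward a value shared by all genes. The SE can therefore be smaller or larger than the 4 pairs alone would give. A gene was tested if its brightest probe exceeded the median of the whole table (5.27 in log2) on at least 2 arrays. Trem2 stood at 10.66 to 10.81 in the 5 WT libraries and at 7.26 to 7.85 in the 5 Trem2-/- libraries, which matches the genotype labels. Transcripts of the microglial genes Cx3cr1 (12.14 to 12.53), Csf1r (11.77 to 12.33) and P2ry12 (10.77 to 11.46) were high in every library. Across genes, 2 of the 8 libraries correlated at a Pearson r of 0.983 to 0.991 when they lay in the same run of numbers (12 combinations) and at 0.974 to 0.983 when they did not (16 combinations).

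Of 10792 genes tested, 887 (8.22%) were higher and 1307 (12.1%) were lower after 12 weeks, at an adjusted p under 0.05 in limma. Among these, 95 rose and 85 fell by at least 2-fold. The sign was the same in 4 of 4 pairs for 866 of the higher and 1278 of the lower genes. The genes nearest the threshold had small differences: Smyd5† (-0.50 ± 0.16) was just inside it (-0.33 without the WT recovery pair) and Chka (0.49 ± 0.15) just outside. Quantile normalization of the 8 arrays shifted the balance, with 1087 genes higher and 1061 lower, 50.6% of the calls being higher against 40.4% as deposited. Without the WT cuprizone pair 548 genes were higher and 681 lower, and without the Trem2-/- recovery pair 435 and 629. Of the 150 called genes named here, 60 lost the call in at least 1 of the 4 fits that leave a pair out, at an adjusted p of 0.05 to 0.19 and with the same sign. These are marked †, and all of them but Hp†‡, Il1rn†, Mir103-2†, Mpo†‡ and Ttr† differed by less than 2-fold. Of the same 150 genes, 8 were below the table's median in all 4 libraries of 4 weeks and 15 in all 4 libraries of 12 weeks. These are marked ‡: they passed the filter only through the libraries where they are high, and the size of their difference rests on levels near the floor of the array. A smaller size is therefore also given for the main ones, with every level below the table's median set to that median. The differences of separate pairs correlated across genes at r between 0.52 and 0.63 (10792 genes, which are not independent; the pairs share no library but share the runs).

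The controls lie in the run of the 4-week libraries, so their position was compared with both groups. For 828 of the 887 higher genes (93.3%) and 1135 of the 1307 lower genes (86.8%), the mean of the 2 controls was nearer to the 4-week mean than to the 12-week mean. Over all genes tested that share was 70.5%. Higher genes had a median of -0.00 for 4 weeks minus control and of 0.56 for 12 weeks minus control, and lower genes had 0.06 and -0.48. The called genes were chosen by their difference between 12 and 4 weeks, and that choice can itself raise these shares. How much of the distance of the 12-week libraries from the others is feeding time cannot be told apart from the run.

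**Figure D1:**
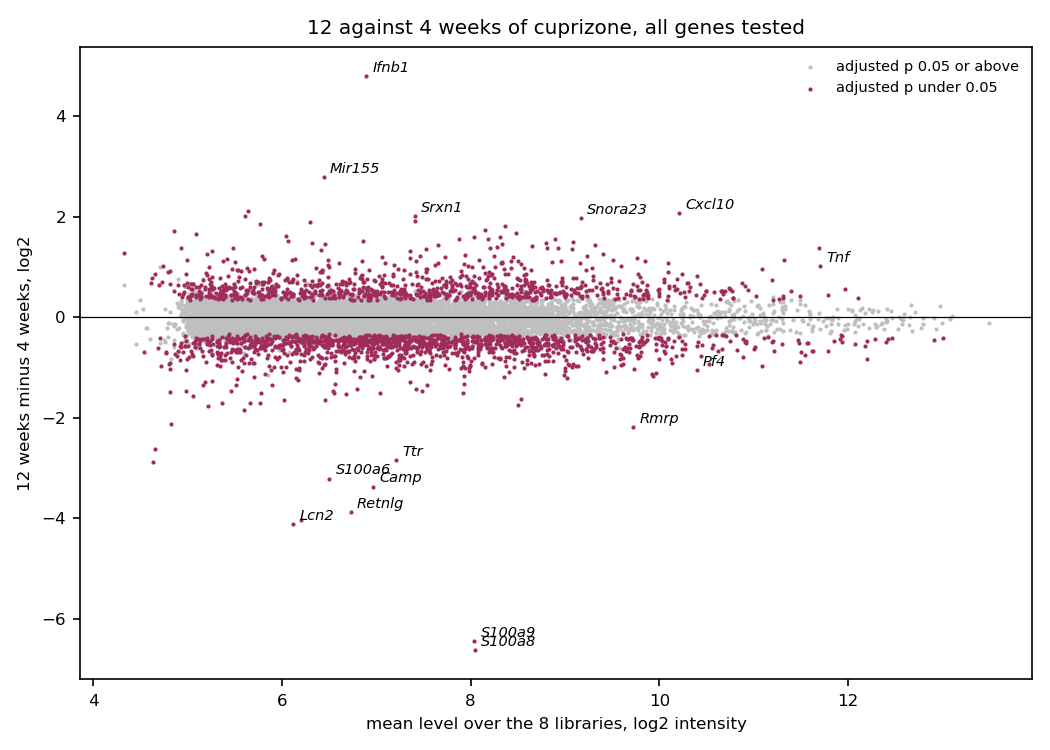
Mean level over the 8 libraries (x axis, log2 intensity) against 12 minus 4 weeks (y axis, log2) for the 10792 genes tested, each point a gene and coloured points the called ones. Ifnb1 lies highest at 4.81 and S100a8 and S100a9 lowest at -6.63 and -6.44.

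Interferon-beta showed the largest rise. Ifnb1‡ was at 4.51 in WT-Cu4, 4.23 in WT-Cu4+2, 4.61 in Trem2-Cu4 and 4.61 in Trem2-Cu4+2, and both controls were at 4.04 and 4.24, all below the table's median. At 12 weeks it was at 10.43 in WT-Cu12, 8.99 in WT-Cu12+2, 8.49 in Trem2-Cu12 and 9.29 in Trem2-Cu12+2. The groups did not overlap, and the difference was 4.81 ± 0.26 (n = 4 pairs, adjusted p = 3.9e-05). With levels below the table's median set to it, the difference was at least 4.03, still above the rise of every other gene. Cxcl10, a chemokine that interferons and NF-kappaB induce, was at 9.79, 8.77, 8.98 and 9.15 in the same order at 4 weeks and at 11.63, 11.33, 10.76 and 11.24 at 12 weeks. It rose by 2.07 ± 0.14 (adjusted p = 8.7e-05), again without overlap, from control levels of 8.62 and 8.23.

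Many cytokine and chemokine genes rose. Of 24 tested, 11 (45.8%) were called higher, against a background of 8.22%, and 1 lower, with a median difference of 0.28 against -0.04 over all genes. Between 7 and 8 were called higher when 1 pair was left out. Tnf, the gene of tumour necrosis factor, was at 10.93 to 11.40 in the first-run libraries and at 11.98 to 12.32 at 12 weeks, a rise of 1.02 ± 0.12 (adjusted p = 0.0008). Il12b, the shared subunit of interleukins 12 and 23, rose by 1.52 ± 0.17 and reached 8.14 in WT-Cu12, against 5.84 in Trem2-Cu12. The T cell chemokine gene Ccl5 rose by 1.55 ± 0.31 (adjusted p = 0.0089). Its pairs were uneven, since Trem2-Cu4 (8.60) and Trem2-Cu12 (8.80) lay close together. Smaller rises were those of Il1rn†, the interleukin 1 receptor antagonist (1.12 ± 0.25), Il6† (0.94 ± 0.22), Cxcl16 (0.80 ± 0.13), Il1b (0.53 ± 0.11), Cxcl2† (0.53 ± 0.15), Osm† (0.51 ± 0.11), Il1a† (0.39 ± 0.11) and Tgfb1† (0.38 ± 0.11). The rise of Il6 was 0.60 without the WT cuprizone pair, and without the Trem2-/- cuprizone pair it was 0.97 and lost the call (adjusted p = 0.056). Il18† fell by 0.61 ± 0.15. For all 12 called members the controls were nearer to the 4-week mean.

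Other genes among the 15 with the largest rises encode growth factors, surface proteins and regulators. Hbegf, a ligand of the epidermal growth factor receptor, was at 6.47, 6.60, 6.36 and 6.37 at 4 weeks and at 8.19, 7.89, 8.84 and 8.55 at 12 weeks, a rise of 1.92 ± 0.18 (adjusted p = 0.00032). Edn1, which encodes the vasoconstrictor endothelin 1, rose by 1.89 ± 0.19. Itga5, the alpha subunit of the fibronectin receptor, rose by 1.82 ± 0.15, and Prdm1, the transcriptional repressor first found as a silencer of the interferon-beta gene, by 1.73 ± 0.14. Nabp1, a single-stranded DNA binding protein of DNA repair, rose by 1.67 ± 0.13. Tpbg‡, the trophoblast glycoprotein, rose by 1.71 ± 0.12 from between 3.88 and 4.17 to between 5.42 and 5.88, or by at least 0.45 over the table's median. The remaining protein-coding or unnamed loci of that set were 4930589L23Rik‡ (2.11 ± 0.13) and the vomeronasal receptor gene Vmn2r9‡ (2.02 ± 0.12). Both were below the table's median in every first-run library and above it in every 12-week library, where they exceeded it by at least 1.43 and 1.35 on average.

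**Figure D2:**
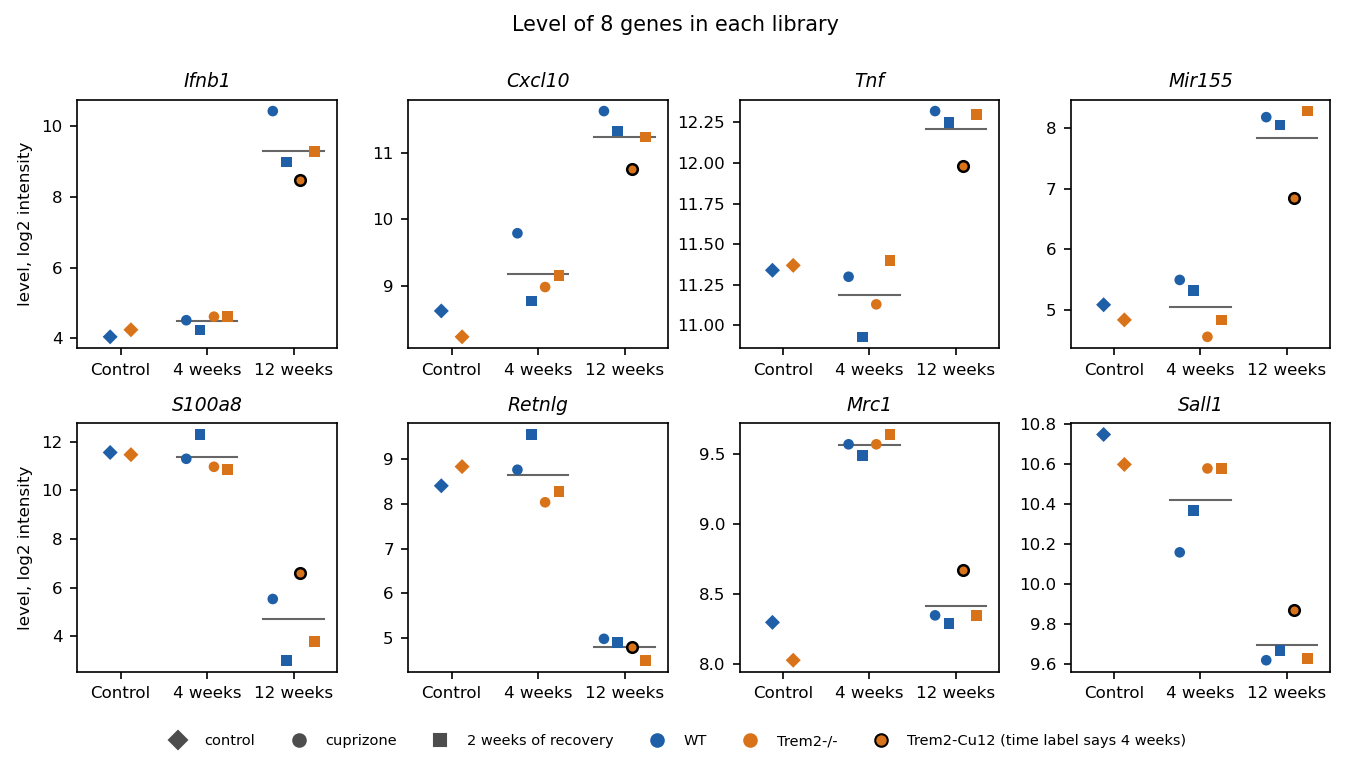
Level (y axis, log2 intensity) of 8 genes in each of the 10 libraries by group (x axis), with colour for genotype, shape for phase, a line at the mean of each group of 4 and a black edge on Trem2-Cu12. The 8 are called genes picked for display, so their lack of overlap does not stand for genes in general. The 4-week and 12-week libraries do not overlap in any of the 8 panels, and the mean of the 2 controls is nearer to the 4-week mean in every panel but that of Mrc1, where the controls are at 8.30 and 8.03.

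Stress and metabolic genes moved in both directions. Srxn1, the NRF2 target that repairs oxidized peroxiredoxins, was at 6.29, 6.89, 6.14 and 6.27 at 4 weeks and at 8.41, 8.50, 8.28 and 8.48 at 12 weeks, a rise of 2.02 ± 0.13 (adjusted p = 5.8e-05). Of 14 oxidative stress and NRF2 target genes tested, 4 rose and 1 fell: the cystine transporter gene Slc7a11‡ (1.17 ± 0.19), Txnrd1 (1.02 ± 0.13) and Sod2† (0.66 ± 0.13) rose with Srxn1, and catalase, Cat, fell by 0.53 ± 0.11. Of 27 immediate early and heat shock genes 5 were higher and 2 lower, and the higher ones included the heat shock genes Hspa1a (1.27 ± 0.20), Dnajb1, which encodes its cochaperone (1.07 ± 0.14), and Hsp90aa1 (0.75 ± 0.15). Hsph1, another heat shock chaperone gene, was at 0.25 ± 0.44 and was not called. In that list Dusp2, a phosphatase of MAP kinases, rose by 1.40 ± 0.13, while Klf2† and Junb† fell by 0.54 ± 0.12 and 0.48 ± 0.11. Of 15 unfolded protein response genes 2 rose, the chaperone gene Dnajb9 (1.14 ± 0.13) and Ddit3, which encodes CHOP (0.71 ± 0.11), and Sel1l† fell by 0.46 ± 0.12, shares of 13.3% higher and 6.67% lower against 8.22% and 12.1% of all genes.

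Cuprizone binds copper, and genes of metal handling were listed for that reason. Of 14 tested, 4 (28.6%) rose and 2 (14.3%) fell, against 8.22% and 12.1% of all genes. The transferrin receptor gene Tfrc was at 5.98, 5.57, 5.46 and 5.23 at 4 weeks and at 6.54, 6.80, 6.83 and 6.71 at 12 weeks, a rise of 1.16 ± 0.15 (adjusted p = 0.0015), and Slc11a2, the divalent metal transporter that carries iron out of endosomes, rose by 1.09 ± 0.19. Metallothionein 2, Mt2†, rose by 0.68 ± 0.16 and the ferritin light chain gene Ftl1† by 0.48 ± 0.13. The iron exporter gene Slc40a1† fell by 0.35 ± 0.10. Cp, the copper-carrying ferroxidase ceruloplasmin, fell by 0.96 ± 0.12, from 6.01 to 6.48 at 4 weeks to 5.24 to 5.48 at 12 weeks, and the controls lay with the 12-week libraries at 5.39 and 5.11. Energy metabolism was mixed: 5 of 27 oxidative phosphorylation genes (18.5%) rose, led by Uqcrb (1.23 ± 0.12), and 4 (14.8%) fell, led by Ndufb9 (-0.66 ± 0.13). All 4 called members (25%) of the glycolysis and hypoxia list of 16 rose, with the glucose transporter gene Slc2a1 at 0.78 ± 0.11 and the genes of the oxygen sensor Egln3† at 0.52 ± 0.15, the transcription factor Hif1a† at 0.40 ± 0.11 and the glycolytic enzyme Pgk1† at 0.37 ± 0.11.

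MicroRNA genes were called higher in 25 (27.2%) and lower in 8 (8.7%) of 92 tested, out of 288 on the array, against 8.22% and 12.1% of all genes, with a median difference of 0.17. These counts were 12 to 23 and 5 to 11 when 1 pair was left out. Of the 288, 66 to 75 exceeded the table's median in the 4-week libraries, 74 in each control and 81 to 86 in the 12-week libraries. Some may thus have passed the filter only through the 12-week libraries, so the share called higher is a description. Olfactory receptor genes (Olfr), most of them below the table's median in every library, had a median difference of 0.16. Of 34 tested, out of 1027 on the array, 5 (14.7%) were called higher and 0 lower. Whether the rise is particular to miRNA genes or shared by genes of low intensity was not tested. The miRNA probes read the miRNA gene's transcript, and the mature arms were not measured separately. The mature products of the genes with the largest differences are given from RefSeq (GRCm38.p6), written 5′ to 3′ with the seed, bases 2 to 8, in capitals, because the seed sets which messages a miRNA can pair with and because Mir221‡ and Mir222‡ share one.
miR-155-5p: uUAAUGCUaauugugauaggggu
miR-221-3p: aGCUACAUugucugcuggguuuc
miR-222-3p: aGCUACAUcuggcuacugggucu
miR-128-3p: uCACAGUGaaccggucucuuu
miR-24-3p: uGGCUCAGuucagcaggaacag
miR-155-5p, the arm known for its induction in activated macrophages, lies at chr16:84714143-84714165 on the plus strand. Mir155 was at 5.49, 5.32, 4.55 and 4.83 in the 4-week libraries and at 8.18, 8.05, 6.85 and 8.28 in the 12-week libraries, a rise of 2.79 ± 0.17 (adjusted p = 5.7e-05). The lowest of the 12-week values is that of Trem2-Cu12, and the groups did not overlap.

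miR-221-3p (chrX:19146307-19146329) and miR-222-3p (chrX:19146901-19146923) come from neighbouring genes on the minus strand of the X chromosome and carry the same seed, GCUACAU. Mir221‡ was at 3.69 to 4.54 at 4 weeks and at 6.66, 6.01, 5.20 and 5.80 at 12 weeks, a rise of 1.65 ± 0.15 (adjusted p = 0.00029). Mir222‡ rose by 1.28 ± 0.28 (adjusted p = 0.013), to 6.06 and 5.30 in the WT libraries and to 4.25 and 4.28 in the Trem2-/- libraries. Both genes were thus highest in WT-Cu12. With levels below the table's median set to it, the rise was 0.67 for Mir221 and 0.21 for Mir222. The genotype difference of Mir222 (-1.34 ± 0.38) did not pass the test across all genes.

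The 2 largest falls among miRNA genes were those of Mir128-1‡ (-1.70 ± 0.22, or -0.95 with levels below the table's median set to it) and Mir24-2 (-1.51 ± 0.18). Their mature arms, which other genes of the genome also give, have seeds of their own, CACAGUG and GGCUCAG. Mir24-2 was at 8.38 to 8.79 at 4 weeks and at 7.48, 6.76, 7.47 and 6.96 at 12 weeks, with controls at 8.81 and 8.60. Mir103-2† fell by 1.28 ± 0.39 with an uneven spread, since Trem2-Cu12 (5.95) lay above Trem2-Cu4 (5.83).

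Promoters of the genes that led the rise are given because their motifs are textbook examples of cytokine and NRF2 control. Each is the 250 bases before the annotated start (RefSeq, GRCm38.p6), 5′ to 3′ on the gene's strand. In Ifnb1‡ and Cxcl10 capitals mark matches to GGGNNNNNCC (an NF-kappaB-like motif), GAAANNGAAA (an interferon-stimulated response element, ISRE) or TGANTCA (AP-1), and in Srxn1 matches to TGANNNNGC (the antioxidant response element, ARE, which NRF2 binds), on either strand. The AP-1 and ARE letters can overlap.
Ifnb1, chr4:88522795-88523044, minus strand: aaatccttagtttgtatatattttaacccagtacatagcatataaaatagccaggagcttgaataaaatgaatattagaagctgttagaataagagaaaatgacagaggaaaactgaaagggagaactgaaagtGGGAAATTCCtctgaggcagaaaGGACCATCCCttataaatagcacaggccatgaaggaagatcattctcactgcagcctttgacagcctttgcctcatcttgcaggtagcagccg
Cxcl10, chr5:92348890-92349139, minus strand: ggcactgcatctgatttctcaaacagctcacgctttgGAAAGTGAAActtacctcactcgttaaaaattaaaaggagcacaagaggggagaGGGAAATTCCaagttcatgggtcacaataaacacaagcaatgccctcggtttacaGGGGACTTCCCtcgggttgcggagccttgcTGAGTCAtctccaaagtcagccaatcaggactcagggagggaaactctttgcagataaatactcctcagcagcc
Srxn1, chr2:152105274-152105523, plus strand: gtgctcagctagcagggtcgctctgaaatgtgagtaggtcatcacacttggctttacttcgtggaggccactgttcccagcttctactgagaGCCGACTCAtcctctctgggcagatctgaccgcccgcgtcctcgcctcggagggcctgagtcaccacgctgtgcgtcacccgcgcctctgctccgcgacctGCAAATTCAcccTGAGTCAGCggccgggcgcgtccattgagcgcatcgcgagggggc
The Ifnb1‡ window holds 2 NF-kappaB-like matches, at -116 to -107 and -93 to -84 from the start, and none for the ISRE, AP-1 or ARE letters. In Cxcl10 there is an ISRE match at -213 to -204, NF-kappaB-like matches at -159 to -150 and, overlapping one another, at -104 to -95 and -103 to -94, and an AP-1 match at -74 to -68. Srxn1 has 3 ARE matches, the last of which (-45 to -37) contains an AP-1 match, another AP-1 match at -102 to -96 and an NF-kappaB-like match at -32 to -23. Cxcl10 also has an ARE match at -76 to -68. These further matches are not in capitals unless they overlap a marked one. Of the 15 genes with the largest rises, 10 have an entry in the promoter table, and the AP-1 letters were in 4 of these (40%) against 6.75% of all 32817 promoters, the ISRE letters in 2 against 2.97%, the NF-kappaB-like letters in 6 (60%) against 45.8% and the ARE letters in 4 (40%) against 35.2%. Of the 15 genes with the largest falls, 12 have an entry, and 0 held the ISRE or AP-1 letters, 5 the NF-kappaB-like and 6 the ARE letters. A named gene counted if any of its annotated windows matched, while the share over all promoters counts each window, so these shares are not strictly alike. The named genes were also picked by the size of their difference. These are matches of letters in short windows, and binding was not measured.

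Neutrophil genes had the lowest median of the 35 lists examined. Of 17 on the array 14 were tested, 13 were called lower and 0 higher, against a background of 12.1% lower, with a median difference of -2.17. Of the 13 called, 9 were below the table's median in all 12-week libraries and passed the filter only through the other libraries, so this count is a description. S100a8, an antimicrobial calcium-binding protein that neutrophils store, was at 11.30 in WT-Cu4, 12.30 in WT-Cu4+2, 10.97 in Trem2-Cu4 and 10.86 in Trem2-Cu4+2. At 12 weeks it was at 5.53, 3.01, 6.59 and 3.77, a fall of 6.63 ± 0.59 (adjusted p = 0.00027), and the controls were at 11.56 and 11.47. Its partner S100a9 fell by 6.44 ± 0.39, from 10.83 to 12.19 to 4.27 to 6.26. The granule genes Lcn2‡ (-4.12 ± 0.44), Ngp‡ (-4.04 ± 0.33), Camp (-3.37 ± 0.36) and Ltf‡ (-1.71 ± 0.25) and the secreted factor gene Retnlg‡ (-3.87 ± 0.19) fell with them. With levels below the table's median set to it, the differences were -2.91 for Lcn2, -2.95 for Ngp, -1.36 for Ltf and -3.39 for Retnlg. Mpo†‡, Elane†‡ and Mmp9‡ fell by 1.26 ± 0.30, 0.59 ± 0.18 and 0.54 ± 0.12, and without the WT recovery pair Mpo was at -0.80 and Elane at -0.39. Set to the table's median in the same way, Mpo was at -0.72, Elane at -0.25 and Mmp9 at -0.02. Summed over the list, the linear intensity was 8158 to 8567 in the controls, 5909 to 15822 at 4 weeks and 914 to 1061 at 12 weeks. In bulk RNA, fewer cells of a type and less RNA per cell cannot be told apart.

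Monocyte genes were lower as well. Of 10 tested, 8 (80%) were called lower and 0 higher, against 12.1% and 8.22% of all genes, with a median of -0.92. On the neutrophil list there are also 2 of the 8 (Chil3‡ and Hp†‡). Of these 8, 3 (Chil3, Hp and Ifitm6‡) were below the table's median in all 12-week libraries. With such levels set to that median, Chil3 was at -0.85, Hp at -0.58 and Ifitm6 at -0.80. Plac8 was at 7.28, 6.11, 6.93 and 5.78 at 4 weeks and at 5.66, 3.73, 5.23 and 4.10 at 12 weeks, a fall of 1.84 ± 0.14 (adjusted p = 0.00015). The groups did not overlap, though the highest 12-week level and the lowest 4-week level were close. Ccr2, the chemokine receptor that brings monocytes into tissue, fell by 0.96 ± 0.19, Ifitm6 by 2.88 ± 0.23, the integrin gene Itga4 by 0.81 ± 0.14 and Lyz2, which macrophages of many kinds express, by 0.88 ± 0.15. S100a6, Anxa1‡ and Cd24a‡, on neither list but among the 15 largest falls, fell by 3.21 ± 0.40, 2.13 ± 0.22 and 1.76 ± 0.16. With levels below the table's median set to it, Anxa1 was at -0.67 and Cd24a at -0.83.

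Border macrophage genes followed another course relative to the controls. Of 15 tested, 12 (80%) were called lower and 0 higher, against 12.1% and 8.22% of all genes, and the median was -1.08. Of the 12 called, 1 was below the table's median in all 12-week libraries and both controls and passed the filter only through the 4-week libraries. Mrc1, the mannose receptor gene, was at 9.57, 9.49, 9.57 and 9.64 at 4 weeks and at 8.35, 8.29, 8.67 and 8.35 at 12 weeks, a fall of 1.15 ± 0.11 (adjusted p = 0.0004), while the controls were at 8.30 and 8.03. The haemoglobin scavenger receptor gene Cd163 fell by 1.65 ± 0.16, from 7.10 to 7.41 to 5.26 to 5.98, with controls at 5.77 and 5.31. Lyve1 (-1.42 ± 0.16), F13a1 (-1.28 ± 0.16), Dab2 (-1.08 ± 0.11) and Pf4 (-1.05 ± 0.11) fell in all 4 pairs. For 11 of the 12 called genes the controls were nearer to the 12-week mean. The exception was Stab1, at 9.03 and 8.95 in the controls, 9.20 to 9.47 at 4 weeks and 8.10 to 8.43 at 12 weeks. Summed intensity was 2355 to 2972 in the controls, 5816 to 6643 at 4 weeks and 2722 to 3053 at 12 weeks. Here the 4-week libraries stood above the controls of their own run, whereas for the neutrophil genes the medians of 4 weeks minus control and 12 weeks minus control were 0.05 and -2.01. With the genes of these 3 lists left out of the fit, 891 genes were higher and 1279 lower.

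**Figure D3:**
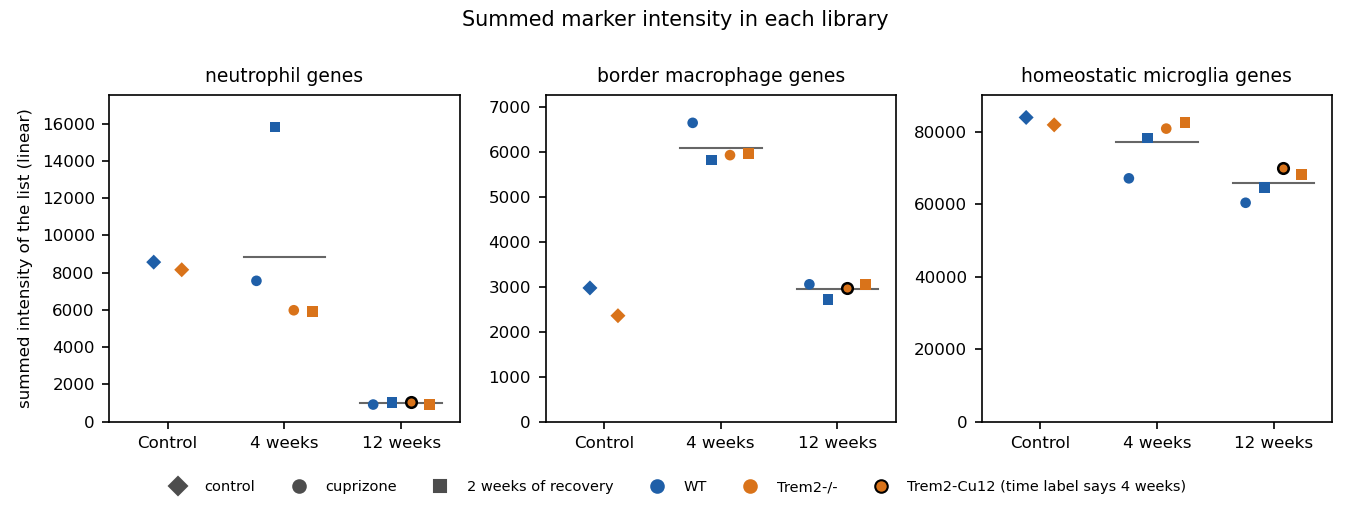
Summed linear intensity (y axis, from 0) of the neutrophil, border macrophage and homeostatic microglia lists in each library by group (x axis), with a line at the mean of each group of 4. Neutrophil sums are 914 to 1061 at 12 weeks and at least 5909 elsewhere, and border macrophage sums stand out at 4 weeks only.

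Other cell types showed smaller differences. Over all genes tested, 8.22% were called higher and 12.1% lower. Of 6 astrocyte genes tested, 3 were lower: Aldoc (-1.08 ± 0.22), the glutamate transporter gene Slc1a3† (-0.57 ± 0.13) and Clu† (-0.47 ± 0.12), and the summed intensity of the list was 497 to 759 at 4 weeks, 425 to 479 at 12 weeks and 698 to 706 in the controls. Ttr†, the transthyretin gene that choroid plexus expresses strongly, was at 4.14 in WT-Cu4 but at 10.95, 9.58 and 9.87 in the other 4-week libraries, and at 5.07 to 6.88 at 12 weeks, a fall of 2.84 ± 0.87 (adjusted p = 0.045) that ranged from -4.25 without the WT cuprizone pair to -1.83 without the WT recovery pair. The other ependymal and choroid plexus genes tested, Folr1 and Rarres2, were at 5.13 to 5.82 throughout. Markers of other cell types were mostly at or below the table's median: 6 of 12 oligodendrocyte genes on the array were tested, 2 of 9 of oligodendrocyte precursors, 4 of 15 of neurons, 3 of 12 of endothelial and mural cells, 3 of 14 of T and NK cells, 4 of 8 of B cells, 6 of 12 of dendritic cells and 1 of 3 of erythroid cells. Among these, 1 gene was called higher, the oligodendrocyte gene Mal† (0.43 ± 0.12), and 4 lower: Camk2a† of neurons (-0.70 ± 0.21), Nkg7†‡ of NK cells (-0.76 ± 0.21), Blnk† of B cells (-0.48 ± 0.13) and Cd209a† of dendritic cells (-0.86 ± 0.19). The part of such cells in the differences between groups was not tested.

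Resting microglial genes were mostly lower. Of 31 homeostatic microglia genes tested, 29 had a negative difference, 11 were called lower (35.5% against the background of 12.1%) and 0 higher, and the median was -0.27. With 1 pair left out, 6 to 10 were called lower. Sall1, a transcription factor that maintains microglial identity, was at 10.16, 10.37, 10.58 and 10.58 at 4 weeks and at 9.62, 9.67, 9.87 and 9.63 at 12 weeks, a fall of 0.72 ± 0.11 (adjusted p = 0.0032) without overlap. The controls were at 10.75 and 10.60. Sall3 (-0.66 ± 0.11), the engulfment receptor gene Mertk† (-0.62 ± 0.12), the nucleotide receptor gene P2ry6 (-0.57 ± 0.11), Mef2c (-0.55 ± 0.11), Bin1 (-0.55 ± 0.10) and Siglech (-0.51 ± 0.10) fell by similar amounts. Tmem119† fell by 0.42 ± 0.12 (adjusted p = 0.034). Cx3cr1, P2ry12 and Csf1r did not pass the test, at -0.17 ± 0.10, -0.13 ± 0.11 and -0.29 ± 0.11, and Aif1 and Ptprc were at 0.00 ± 0.11 and -0.02 ± 0.11. Summed intensity of the list was 67155 to 82613 at 4 weeks and 60410 to 70134 at 12 weeks.

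TGF-beta signalling keeps microglia in their resting state. Of 11 genes of that pathway tested, 3 were lower (27.3% against 12.1% of all genes), the signal transducer gene Smad3 (-0.57 ± 0.11), Nrros†, which anchors the latent cytokine on microglia (-0.47 ± 0.12), and the target gene Pmepa1† (-0.60 ± 0.14). Tgfb1† itself and Skil†, a repressor of the pathway (0.45 ± 0.11), were higher. With 1 pair left out, 1 to 3 were lower and 0 or 1 higher.

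The disease-associated microglia genes, a program that depends in part on Trem2 and marks microglia around damage, were rarely called. Of 29 tested, 2 (6.9%) were called lower, against 12.1% of all genes, and 0 higher, against 8.22%, and the median was -0.13. The called genes were the tetraspanin gene Cd9 (-0.68 ± 0.12) and Cst7†, the gene of cystatin F (-0.66 ± 0.17). Cst7 was at 10.98, 8.71, 7.76 and 8.38 at 4 weeks and at 9.92, 8.31, 6.66 and 8.30 at 12 weeks, against 6.81 and 6.37 in the controls, so that the range within each feeding time exceeded the difference between them. Without the pairing its adjusted p was 0.55. Relative to the controls the list had a median of 0.48 at 4 weeks and of 0.30 at 12 weeks, over both genotypes together. The genotypes differed: its median level was 9.31 in WT-Ctl, 10.81 in WT-Cu4 and 10.22 in WT-Cu12. In Trem2-Ctl, Trem2-Cu4 and Trem2-Cu12 it was 8.25, 8.60 and 8.19. In recovery from 4 and 12 weeks it was 9.49 and 9.50 in WT and 9.05 and 8.65 in Trem2-/-.

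Genes for taking up and digesting debris were more often lower than higher, with calls in both directions. Differences were negative in 16 of 20 phagocytic receptor, 24 of 29 lysosomal and 17 of 21 lipid handling genes tested. Over all genes that share was 55.1%. Among all genes tested 12.1% were called lower and 8.22% called higher. Among phagocytic receptors 8 of 20 tested (40%) were called lower and 1 higher, and among lysosomal genes 7 of 29 (24.1%) and 1. Among cholesterol efflux and lipid handling genes 5 of 21 (23.8%) were called lower and 2 higher. With 1 pair left out, the lower counts were 3 to 6, 2 to 4 and 2 to 5. The lists overlap, so these are not separate results. Lrp1, Cd36 and Msr1† are on both the phagocytic and the lipid list, and Lipa† is on both the lysosomal and the lipid list. Mertk† and Stab1, among the lower phagocytic receptors, are also on the homeostatic and border macrophage lists. Lrp1, a receptor for myelin and apolipoprotein E, was at 9.44, 9.36, 9.72 and 9.73 at 4 weeks and at 8.44, 8.74, 8.36 and 8.76 at 12 weeks, a fall of 0.99 ± 0.13 (adjusted p = 0.0016). The scavenger receptor genes Cd36 and Msr1† fell by 0.78 ± 0.13 and 0.71 ± 0.20, the latter at -0.43 without the Trem2-/- recovery pair. The Fc receptor genes Fcgr1† (-0.39 ± 0.11) and Fcgr3† (-0.49 ± 0.13) and the integrin gene Itgb2† (-0.42 ± 0.12) were also lower. Olr1†, another scavenger receptor gene, was the member that rose (0.58 ± 0.14), and it was above 5 only in WT libraries after cuprizone: 7.21 and 5.39 at 4 weeks and 7.88 and 6.43 at 12 weeks. The cholesterol transporter gene Abcg1† fell by 0.51 ± 0.12 and the lysosomal lipase gene Lipa† by 0.53 ± 0.12, while the lipid droplet coat genes Plin2† and Plin3† rose by 0.40 ± 0.12 and 0.44 ± 0.11. In the lysosome Atp6ap1, Ctsa and Lgmn† fell by 0.70 ± 0.12, 0.54 ± 0.10 and 0.50 ± 0.11. Gla, the alpha-galactosidase gene, rose by 1.12 ± 0.13, from 7.61 to 8.32 to 8.90 to 9.08.

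Of 8 complement genes tested, 4 were lower and 2 higher, against 12.1% and 8.22% of all genes. With 1 pair left out 1 to 3 were lower and 1 or 2 higher, and after quantile normalization 2 were lower and 2 higher. The C1q subunit genes C1qa (-0.75 ± 0.11), C1qb† (-0.44 ± 0.11) and C1qc† (-0.44 ± 0.10) and the properdin gene Cfp† (-0.64 ± 0.15) fell. The receptor genes C5ar1 (0.57 ± 0.11) and C3ar1† (0.43 ± 0.10) rose. C1qa was at 11.86, 12.04, 11.88 and 11.92 at 4 weeks and at 11.19, 11.27, 11.00 and 11.23 at 12 weeks, with controls at 11.85 and 11.87. Of 8 MHC class II genes 3 were lower: H2-Aa† (-0.82 ± 0.18), H2-Eb1 (-0.82 ± 0.16) and H2-DMa (-0.68 ± 0.11). The difference of H2-Aa was -1.42 and -1.07 in the cuprizone and recovery pairs of Trem2-/- and -0.23 and -0.55 in those of WT. The genotype difference of -0.86 ± 0.25 did not pass the test.

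The remaining lists held few called genes. Over all genes tested, 8.22% were higher and 12.1% lower. The shares called higher were 10.5% for cholesterol synthesis, 18.2% for proliferation and 22.2% for trophic factors. Those of splicing and RNA binding were 5% higher and 10% lower, and those of MHC class I 12.5% in each direction. Among 19 cholesterol synthesis genes 2 were higher, the enzyme gene Msmo1† (0.66 ± 0.17, and 0.41 without the WT recovery pair) and the sterol sensor gene Insig1† (0.47 ± 0.12). Among 11 proliferation genes 2 were higher, Pcna† (0.53 ± 0.13), the sliding clamp of DNA replication, and the mitotic kinase gene Aurkb†‡ (0.41 ± 0.12). Aurkb was at 0.10 with levels below the table's median set to it. Among 20 genes of splicing and RNA binding, the helicase gene Ddx17 (-0.54 ± 0.10) and Rbm5† (-0.47 ± 0.12) were lower and Hnrnph1† (0.39 ± 0.11) higher. Among 8 genes of MHC class I, the immunoproteasome subunit gene Psmb9† (-0.60 ± 0.15) was lower and the transactivator gene Nlrc5† higher (0.37 ± 0.11), the latter at -0.12 in the mean over its probes. Of 9 trophic factor genes tested, Hbegf and Tgfb1† were called higher.

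Genes of small non-coding RNAs, ribosomal proteins and histones were counted as families, against the shares of 12.1% lower and 8.22% higher over all genes. Rmrp, the RNA of the RNase MRP complex, was at 11.07, 11.00, 10.96 and 10.21 at 4 weeks and at 8.81, 8.55, 8.56 and 8.58 at 12 weeks, a fall of 2.19 ± 0.15 (adjusted p = 8.4e-05). Of 42 snoRNA genes (Snora and Snord) tested, 14 (33.3%) were lower and 3 higher, with 9 to 13 lower when 1 pair was left out. Snora52 fell by 1.74 ± 0.19, and Snora23 and Snord61 rose by 1.98 ± 0.15 and 1.85 ± 0.22. Of 54 ribosomal protein genes 12 (22.2%) were lower and 2 higher, with Rps10 at -0.82 ± 0.11, and of 22 histone genes 6 (27.3%) were lower and 0 higher, with H2bc8 at -1.34 ± 0.17. Some of these 6 histone genes were below the table's median in all 12-week libraries. They passed the filter only through the other libraries, so the histone count is a description. Lower ribosomal protein genes numbered 7 to 9 with 1 pair left out and 8 after quantile normalization, and lower histone genes 4 to 6 and 6. Many snoRNAs lie in introns of ribosomal protein genes, and histone and snoRNA genes include near-identical copies that a probe may not separate.

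**Figure D4:**
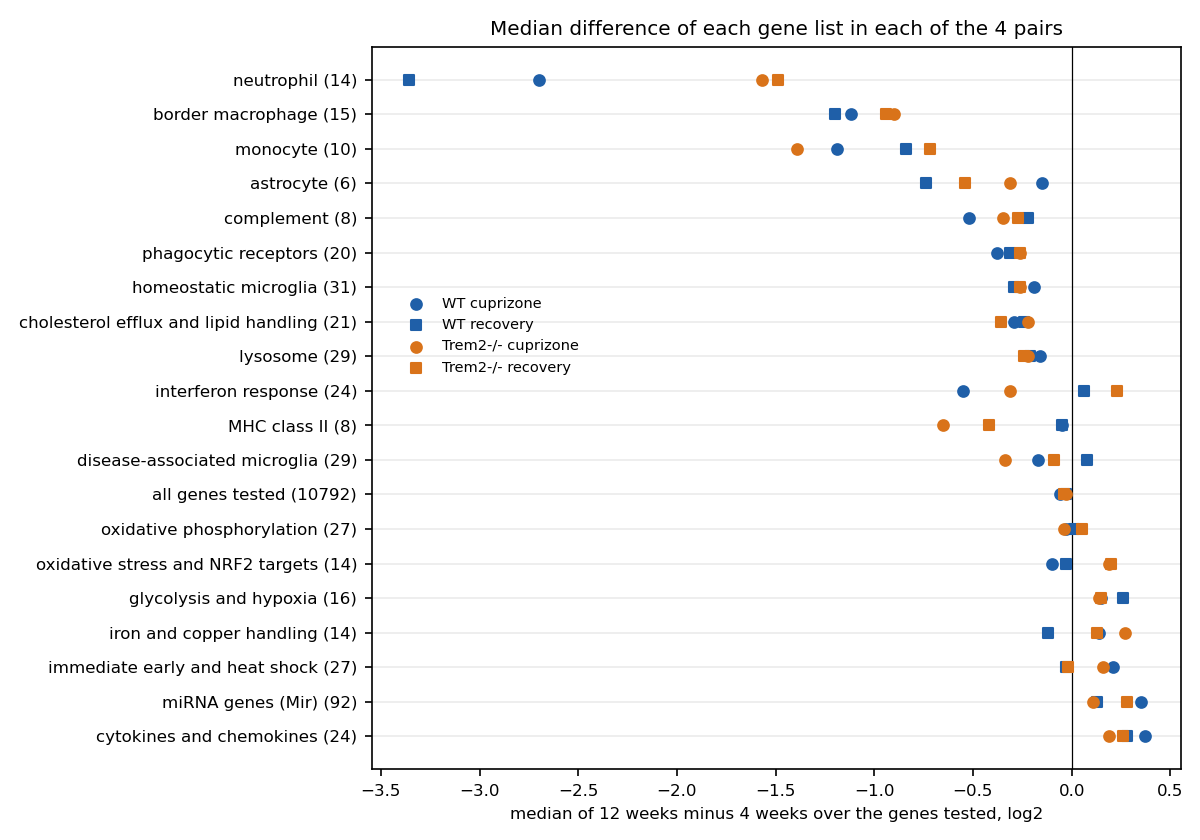
Median of 12 minus 4 weeks (x axis, log2) over the tested genes of 19 lists and over all genes tested, in each of the 4 pairs, with the number tested in brackets. The neutrophil list is lowest in every pair, from -3.36 to -1.49, and the interferon response list lies below 0 in the cuprizone pairs (-0.55 and -0.31) and above 0 in the recovery pairs (0.06 and 0.23).

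Interferon response genes did not follow Ifnb1‡ as a group. Of 24 tested, 4 (16.7%) were higher and 3 (12.5%) lower, against 8.22% and 12.1% of all genes, and the median was -0.25. Beside Cxcl10 the higher genes were Ifit1 (1.39 ± 0.19), Slfn2 (1.38 ± 0.11) and the RNA sensor gene Ifih1 (0.90 ± 0.14), and the lower ones were Xaf1 (-1.43 ± 0.15), Oas2‡ (-0.84 ± 0.19, and -0.55 without the WT cuprizone pair) and Ifitm3† (-0.63 ± 0.16). The pairs differed by phase. The median of the list was -0.55 and -0.31 in the WT and Trem2-/- cuprizone pairs and 0.06 and 0.23 in the recovery pairs. For 22 of the 24 genes the difference was lower in the cuprizone pairs than in the recovery pairs, against 50.1% of all genes tested. Ifit3 was at 8.60 in WT-Cu4 and 8.10 in WT-Cu12, but at 6.52 in WT-Cu4+2 and 7.83 in WT-Cu12+2. In Trem2-/- libraries it was at 7.77 and 6.98 under cuprizone and at 7.54 and 8.09 in recovery. These are the genes of 1 pathway read in the same 8 libraries, and each gene's own phase difference missed the threshold.

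**Figure D5:**
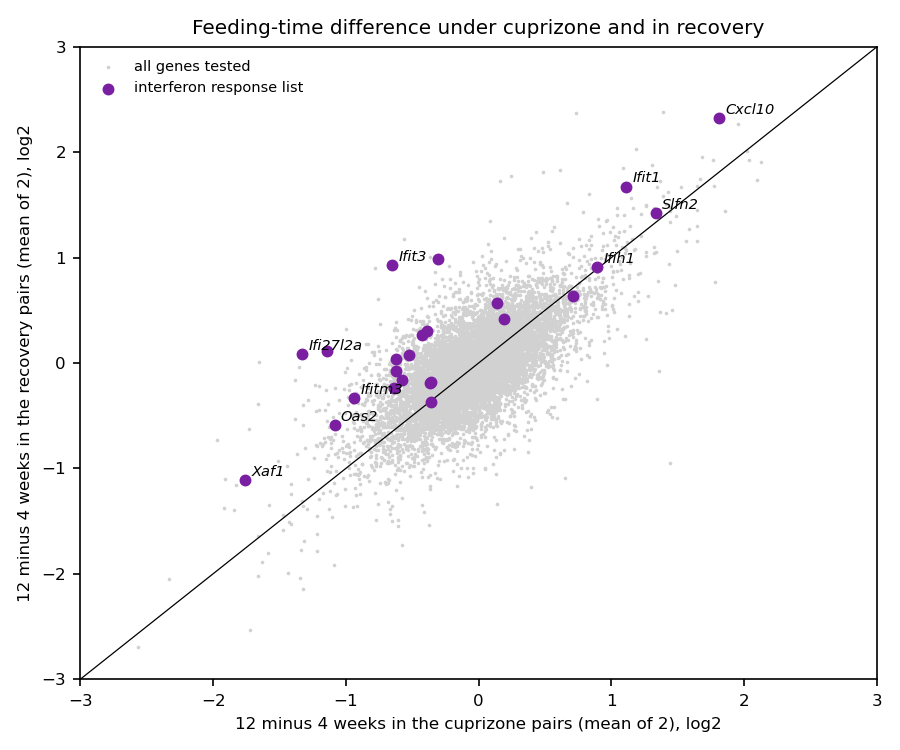
Mean of 12 minus 4 weeks in the 2 cuprizone pairs (x axis, log2) against the same in the 2 recovery pairs (y axis, log2) for all genes tested (grey) and the 24 interferon response genes (purple), with the line of equality; 11 genes lie outside the axes. For 22 of the 24 purple points the value in recovery is the higher one.

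Whether the effect of longer feeding differed between genotypes or between phases was tested with interaction terms, in which a constant offset between the runs cancels. No gene was called for genotype (0 of 10792, 0%) and none for phase (0 of 10792, 0%) in limma. At an unadjusted p under 0.05 there were 454 genes for genotype and 631 for phase. With a mean-variance trend and a robust prior 7 genes were called for phase, among them Ifi27l2a, Ifit3, Apoc1 and Hspa1a, and without the Trem2-/- recovery pair 14 were. The median half-width of the 95% interval was 0.56 for a genotype difference and 0.54 for a phase difference, compared with 0.27 for the difference between feeding times, so small differences between genotypes or phases were not detectable.

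The smallest genotype p belonged to Chil3‡, a chitinase-like protein of neutrophils and macrophages. It fell from 6.35 and 7.52 to 2.69 and 3.92 in the WT libraries and from 4.69 and 5.34 to 3.22 and 3.54 in the Trem2-/- libraries, a difference between genotypes of 1.99 ± 0.23 (adjusted p = 0.23). Cybb, the catalytic subunit of the phagocyte NADPH oxidase, had a genotype difference of -1.43 ± 0.23 (adjusted p = 0.84). In WT libraries it was at 9.61 and 8.62 at 4 weeks and at 9.61 and 8.83 at 12 weeks, and in Trem2-/- libraries at 7.97 and 7.82 and then at 6.74 and 6.41. The other genes of this rank were Vaultrc5 (-1.48 ± 0.24), Slc15a2 (-1.45 ± 0.24) and Treml2 (1.49 ± 0.28). Ifnb1‡ itself had a genotype difference of -1.06 ± 0.41.

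For phase, the 5 genes with the smallest p were Ifi27l2a (-1.41 ± 0.23), Hsph1 (2.40 ± 0.42), Nsun3 (-1.32 ± 0.24), Ifit3 (-1.58 ± 0.29) and Apoc1 (-1.37 ± 0.26), all at an adjusted p of 0.59. Ifi27l2a, an interferon-induced gene, went from 11.05 to 9.81 and from 9.86 to 8.44 in the cuprizone pairs, and from 9.25 to 9.45 and from 9.38 to 9.35 in the recovery pairs. Hsph1, a heat shock chaperone gene, went up in both cuprizone pairs, from 7.50 to 8.28 and from 6.29 to 8.40, and down in both recovery pairs, from 7.89 to 6.53 and from 7.33 to 6.79. Apoc1, an apolipoprotein gene of the lipid response, was at 4.26 and 4.24 in the controls and at 10.83 in WT-Cu4, 9.79 in WT-Cu12, 7.43 in WT-Cu4+2 and 7.94 in WT-Cu12+2.

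The conflicting label of Trem2-Cu12 was examined by leaving its pair out. Without that pair, 636 genes were higher and 985 lower, and in the pair itself 568 of the 636 (89.3%) were higher and 883 of the 985 (89.6%) lower, against 46.7% and 53.3% of all genes. Calls made without the WT cuprizone, WT recovery and Trem2-/- recovery pairs were read in the pair left out with shares of 92.3%, 93.4% and 96.6% for higher genes and 95.9%, 91.7% and 96.5% for lower genes. Of the 150 called genes named here, 112 kept the call without the Trem2-/- cuprizone pair and 38 lost it, at an adjusted p of 0.05 to 0.15. Of those 38, those that had been higher had these differences without it: Aurkb‡ at 0.46, C3ar1 at 0.42, Cxcl2 at 0.39, Egln3 at 0.53, Hnrnph1 at 0.32, Il1a at 0.36, Il6 at 0.97, Insig1 at 0.38, Mal at 0.48, Msmo1 at 0.73, Mt2 at 0.56, Nlrc5 at 0.39, Pcna at 0.50, Pgk1 at 0.40, Plin3 at 0.45 and Tgfb1 at 0.42. Those that had been lower had Abcg1 at -0.46, C1qb at -0.42, Camk2a at -0.66, Cd209a at -0.79, Clu at -0.48, Cst7 at -0.51, Fcgr1 at -0.42, H2-Aa at -0.62, Hp‡ at -1.52, Ifitm3 at -0.46, Itgb2 at -0.46, Junb at -0.42, Klf2 at -0.48, Mpo‡ at -1.32, Nkg7‡ at -0.74, Nrros at -0.46, Pmepa1 at -0.45, Psmb9 at -0.57, Slc40a1 at -0.37, Smyd5 at -0.60, Tmem119 at -0.45 and Ttr at -2.49. With Trem2-Cu12 counted as 4 weeks, 65 genes were higher and 121 lower. In Trem2-Cu12 Retnlg‡ (4.80) lay within the range of the other 12-week libraries. The library lay on the 12-week side of the gap, but was the nearest of the 12-week libraries to the 4-week level, for Ifnb1‡ (8.49), Mrc1 (8.67), Mir155, Cxcl10 and Tnf. Which time label is right cannot be told from these values, since the library also shares its run of numbers with the other 12-week libraries.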

How the data were processed

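RNA from sorted microglia was measured on 1-colour microarrays, 1 library per condition. The values used are linear intensities as deposited by the authors in the series' value table; how they were summarized and normalized is not given in the sources used. Depth does not apply, and the number of arrays limits the precision. Levels are log2 of the intensity. Of 24567 probes, 21259 carry 1 gene symbol in the platform annotation, 1274 several and 2034 are not listed there; the brightest of a gene's probes was kept (19749 genes), and genes above the table's median of 5.27 on at least 2 of the 10 arrays were tested.

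The difference between 12 and 4 weeks was fitted on 8 libraries with limma (version 3.58.1, R version 4.3.3, functions lmFit and eBayes), with the pair of genotype and phase as a fixed block, two-sided, and Benjamini-Hochberg adjustment over all 10792 genes with a threshold of 0.05. Interactions with genotype and phase were added to that model one at a time. The code was tested on simulated data. The alternatives were each array's median subtracted, quantile normalization, log2(intensity + 16), no filter, a filter at an intensity of 100, the mean over probes, Trem2-Cu12 counted as 4 weeks, no pair block, additive blocks, eBayes with trend and robust prior, both interactions in 1 fit and each pair left out; a fit without the marker genes of 3 cell types, and differences with levels below the table's median set to it, were chosen after seeing the data. Genes named are the 15 largest rises and falls of 1 sign in all 4 pairs, the 5 smallest p of each interaction, the called or most changed members of the gene lists, and the microglial markers; Smyd5, Chka and the examples of gene families were chosen after their values were seen. The comparison, the members and the lists were chosen with earlier results of these data known. Figures were drawn with matplotlib 3.10.9 in Python 3.11.15. Arrays without cuprizone entered no test.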

Additional observations from a re-analysis of the deposited data

Results flagged for a closer look

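In 336 groups of 4 libraries (1 feeding time, 1 gene named in the text), the highest or lowest library was separated from the other 3 by a gap past Dixon's 95% critical value in 22 groups. Chance gives about 1 group in 20, which is close to this number, and the causes were not tested.

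Among the 12-week libraries, WT-Cu12 stood highest for Cxcl2 (11.31), Dusp2 (9.46), H2-Eb1 (8.60), Itga4 (5.98) and Rmrp (8.81), and lowest for Bin1 (8.68), Oas2 (4.28) and Smad3 (7.43). Trem2-Cu12, the library with conflicting time labels, was highest for S100a9 (6.26), Mrc1 (8.67) and the engulfment receptor gene Mertk (10.53) and lowest for Mir155 (6.85). In all 4 of these it was the nearest of the 12-week libraries to the 4-week level. WT-Cu12+2 was highest for Folr1 (5.44) and lowest for Lcn2 (3.47) and Pf4 (9.63).

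Among the 4-week libraries, WT-Cu4 was highest for Cd9 (11.87), the interferon-induced gene Ifitm3 (10.62) and P2ry6 (10.81) and lowest for Skil (9.89). Trem2-Cu4 was lowest for Mir221 (3.69) and Mir24-2 (8.38), and Trem2-Cu4+2 was lowest for Rmrp (10.21).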

How the results depend on the processing

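The counts of 887 higher and 1307 lower genes stayed within 1.5 times under every alternative other than the time label of Trem2-Cu12 and 2 of the left-out pairs. With Trem2-Cu12 counted as 4 weeks, 65 genes were higher and 121 lower. With 1 pair left out, 435 to 666 were higher and 629 to 985 lower, the lowest without the Trem2-/- recovery pair. Without the pair block, 819 were higher and 1234 lower, and 23 of the 150 called genes named here lost the call; Olr1 (adjusted p = 0.71), Cst7 (0.55), Egln3 (0.53), Il1b (0.34) and Plin2 (0.31) had the largest p there among limma's fits. Genotype calls went from 0 to 1 with 1 pair left out (Lcn2, Ttr or Mir16-1, each in a different fit). Phase calls were 7 with trend and robust prior, 2 with both interactions in 1 fit and 0 to 14 with 1 pair left out. The causes were not tested.

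Of the 150 called genes, 107 were tested under each alternative other than the relabelled library and the left-out pairs, and 81 of these kept the call in each; the stricter filter tested 122, the fit without marker genes 126 and that with the median subtracted 149. Wherever a called gene was tested it kept its sign, except Nlrc5, at -0.12 in the mean over probes. Of the genes near 0, Aif1 was at -0.01 with each array's median subtracted and ranged from -0.03 to 0.03 with 1 pair left out, and Ptprc was at 0.03 after quantile normalization and was between -0.07 and -0.00 with 1 pair left out, except at 0.00 without the WT recovery pair. Subtracting the median moved the share of higher calls to 37.6%, and dropping the filter moved it to 45.1%. No replicate numbers are given in the labels, so the pairs of genotype and phase are the only block.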
